A study of Saccharomyces cerevisiae with 6 samples.

Results

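The RNA polymerase I and III machinery was followed in yeast cells overexpressing the translation elongation factor eEF1A. It was taken as 41 named genes: the subunits of both polymerases, those they share with each other or with RNA polymerase II, the initiation factors of both, and the repressor *MAF1*. The members were found by their gene symbol in the chip annotation that was deposited with the data. All 41 were measured, by 1 probe set each, out of 5685 genes measured in all. RNA polymerase I (Pol I) is devoted to a single transcript, the precursor of the large ribosomal RNAs, which is made from the repeated rDNA in the nucleolus. RNA polymerase III (Pol III) makes tRNAs, 5S rRNA and other small RNAs. Together they account for most transcription in a growing yeast cell, and both are tuned to nutrients and growth. The RNA of the genes that encode these enzymes is described here, and not the activity of the enzymes.

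The Affymetrix Yeast 2.0 arrays were 2 labelled eEF1A (replicates 2 and 3) and 4 labelled wild type (control replicates 1 to 4), all of *Saccharomyces cerevisiae* in log phase. By the labels and methods, eEF1A cells carried a multi-copy (2 µ) *LEU2* plasmid with *TEF1*, the gene of eEF1A, behind the strong GPD promoter, and control cells carried the empty plasmid. Both groups were grown at 30°C in synthetic medium without leucine to an optical density of 0.7. The labels describe eEF1A cells as enlarged and control cells as normal in size. The methods speak of biological triplicates, while the labels give 2 and 4 arrays and do not state which came from separate cultures, so p-values measure the spread between these arrays. An array compares the makeup of the RNA, so less of a transcript per cell and a dilution by other RNA cannot be told apart.

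Values are log2 expression values after RMA, the authors' normalisation, and differences are eEF1A minus control, so that a difference of 1 is a doubling. A gene was called higher or lower where limma's moderated test gave an adjusted p under 0.05 over all 5685 genes. Every member had a mean above 5.18, the level under which 95 percent of the probe sets for *Schizosaccharomyces pombe* lie, a yeast whose RNA was not on these arrays. The probe set shared by *TEF1* and *TEF2*, near the top of the scale, read 14.51 and 14.49 in eEF1A cells, against 14.49, 14.51, 14.48 and 14.49 in control cells (limma adjusted p = 0.955), so it did not separate the groups. *LEU2* did not pass the test either (adjusted p = 0.351). Other genes did separate them: 4 of 4 markers of alpha cells were higher in eEF1A cells (median difference 5.89) and 5 of 5 markers of a cells were lower (median −4.79), while the nutritional markers *MET17* and *URA3* were higher by 6.59 and 2.98. The plasmid and this difference in mating type and markers therefore cannot be told apart in any comparison below. Pearson correlations over all genes were 0.996 between the eEF1A arrays, from 0.998 to 0.999 between control arrays, and from 0.974 to 0.9754 between the groups.

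More of the machinery was lower than higher. Of the 41 members, 14 were lower in eEF1A cells (34.1%, where 15.7% of all genes were), 3 were higher (7.32%, where 27.8% of all genes were) and 24 were not called. The lower genes encode subunits of both polymerases, *RRN3* and the core factor of Pol I. The higher genes were *MAF1* and a pair of TFIIIC subunits, *TFC6* and *TFC8*. The median difference was −0.12 over the members and 0.04 over all genes. Both eEF1A arrays lay below every control array for 23 members (21.6% of all genes did so) and above every control array for 6 (35.9% of all genes). The groups overlapped for the other 12. At the B-statistic above 1.5 that the study used as its threshold, the log odds of a difference, 2 members were lower, *RRN3* and *RRN11* (2.64% of all genes were lower at it), and none was higher (6.33% of all genes). Before adjustment, 18 members were lower and 5 higher at a limma p under 0.05 (19.2% and 32.9% of all genes).

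The size of these counts depended on single arrays and on scaling. Replicate 3 was the lower of the eEF1A arrays for 37 of 41 members and for 4686 of 5685 genes. The median of the members minus the control mean was −0.18 in it and −0.07 in replicate 2, and that of all genes −0.01 and 0.09. These are also the median differences with the other eEF1A replicate left out. Without control replicate 1, 9 members were lower and 2 higher, while over all genes 706 were lower and 1278 higher. With every array kept, 1583 of all genes were higher and 893 lower. With each array centred on its median these became 1373 higher and 1489 lower, and with a further quantile normalisation 1370 higher and 1502 lower. Of the members, 3 were higher and 26 lower after centring, and 2 were higher and 22 lower after quantile normalisation.

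**Figure D1:**
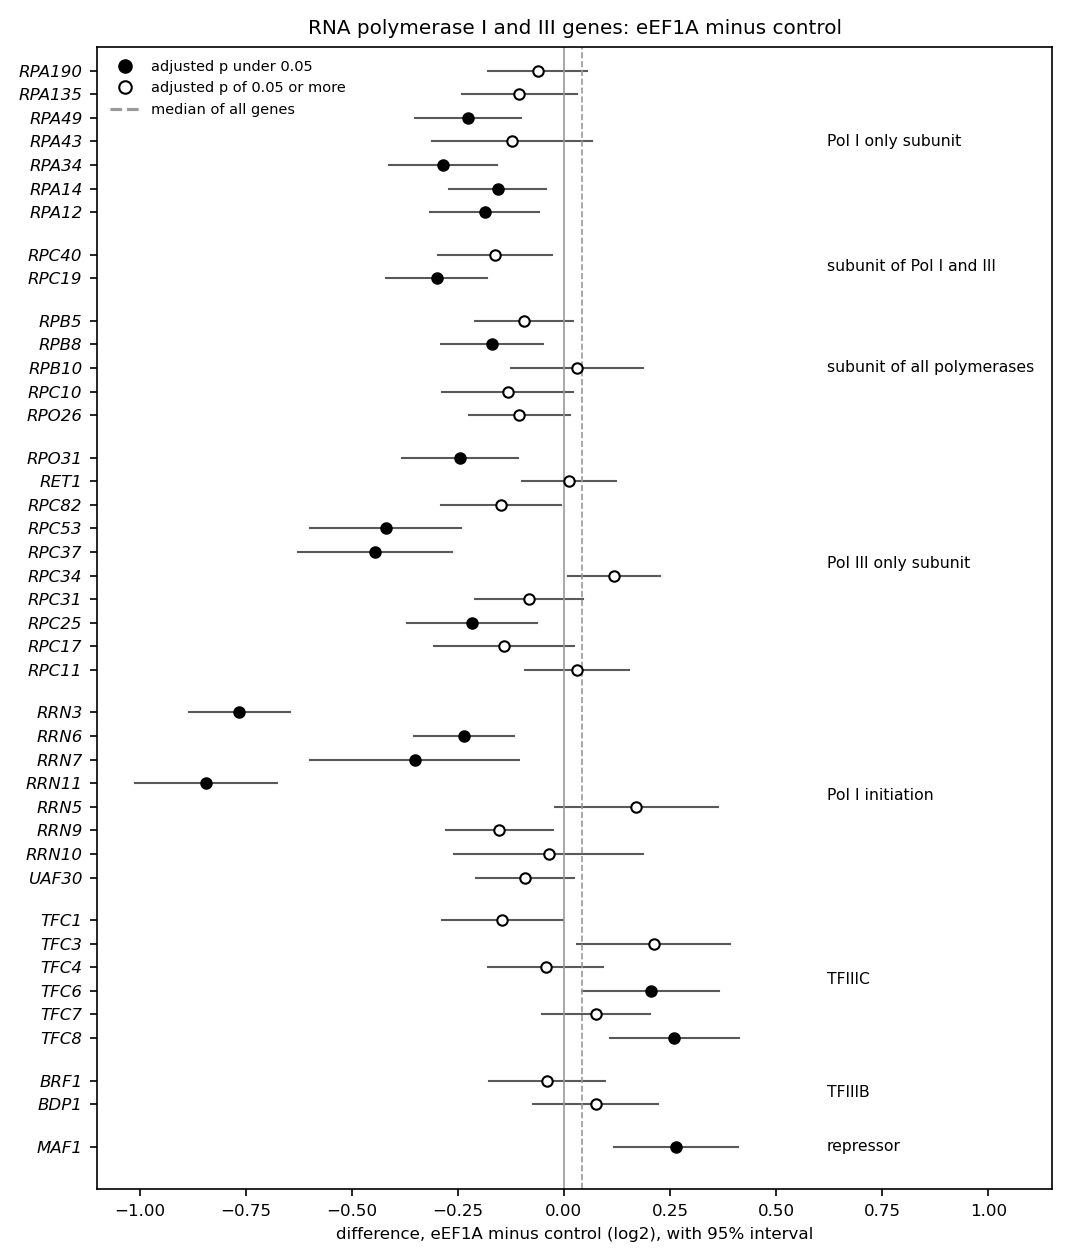
Difference between eEF1A (n = 2) and control (n = 4) arrays on the log2 scale for each of the 41 genes, grouped by role; bars are 95% intervals from limma, filled points passed an adjusted p under 0.05, and the dashed line is the median of all genes, 0.04. *RRN11* and *RRN3* lie furthest below 0, and *TFC3*, *TFC6*, *TFC8* and *MAF1* lie above it.

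The members with the largest differences act in Pol I initiation. Rrn3 binds free Pol I and makes it competent to start, and the core factor (Rrn6, Rrn7 and Rrn11) holds it at the rDNA promoter. *RRN3* (YKL125W, chr11:207889-209772 in the October 2003 build of the chip annotation) read 8.98 and 8.89 in eEF1A cells, against 9.72, 9.74, 9.68 and 9.67 in control cells. *RRN11* (YML043C, chr13:190244-191767, same build) read 8.61 and 8.41 in eEF1A cells, against 9.35, 9.41, 9.41 and 9.25 in control cells. Both eEF1A arrays lay well clear of every control array for each gene. The difference was −0.76 for *RRN3* (SE 0.05, a fold of 0.589, limma adjusted p = 2.31e-05) and −0.84 for *RRN11* (SE 0.07, a fold of 0.557, limma adjusted p = 8.185e-05). Counted from the lowest difference of all 5685 genes, *RRN11* was at place 55 and *RRN3* at place 64. Both kept an adjusted p under 0.05 in every fit tried.

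The other core factor genes were lower by less. *RRN7*, whose product resembles the Pol II factor TFIIB, read 8.09 and 7.65 in eEF1A cells, against 8.28, 8.16, 8.24 and 8.20 in control cells. Its eEF1A arrays were both below the controls but far apart, and its difference of −0.35 (SE 0.11, limma adjusted p = 0.0290) missed the threshold without eEF1A replicate 3 (−0.13, adjusted p = 0.126), without control replicate 1 (0.0683) and without control replicate 3 (0.0643). *RRN6* read 8.47 and 8.39 in eEF1A cells, against 8.63, 8.68, 8.69 and 8.67 in control cells, a difference of −0.23 (SE 0.05, limma adjusted p = 0.00688) that kept its call with each array left out in turn. So all 3 core factor genes were lower, where 15.7% of all genes were. Of the upstream activation factor (UAF), which binds further upstream in the rDNA promoter, 0 of 4 genes were called. Its differences were 0.17 for *RRN5*, −0.15 for *RRN9*, −0.04 for *RRN10* and −0.09 for *UAF30*, with adjusted p from 0.0553 to 0.794. *RRN9* and *UAF30* were below every control array and *RRN5* above, although eEF1A replicate 3 and the highest control both rounded to 7.56. Before adjustment 1 of the 4, *RRN9*, was lower at a limma p under 0.05. The 95% interval of *RRN10*, −0.26 to 0.19, is wide enough to hold the difference of *RRN6*.

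**Figure D2:**
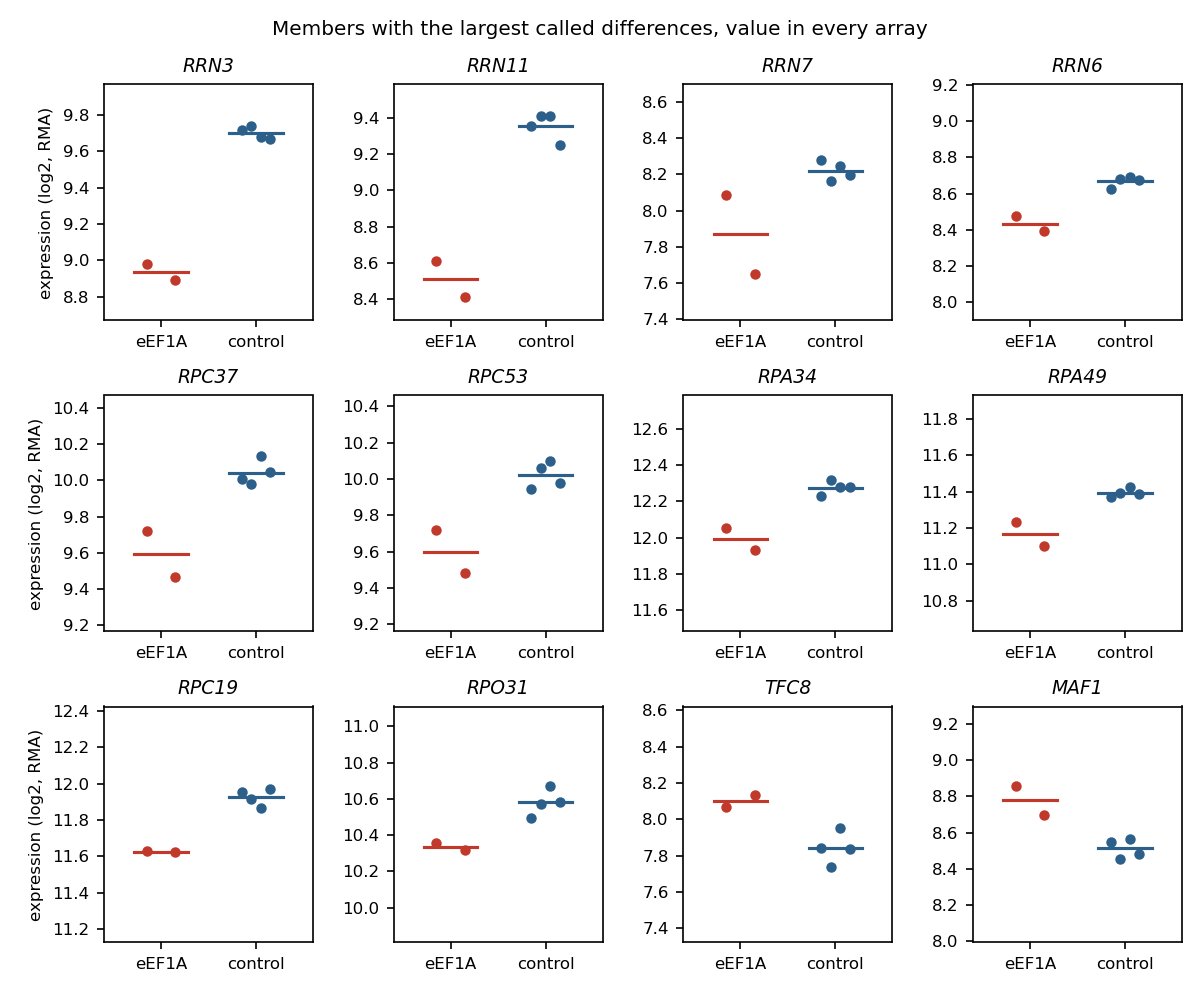
Log2 expression (RMA) on every array of the 12 genes with the largest called differences; points are arrays, eEF1A (replicates 2 and 3) on the left and control (replicates 1 to 4) on the right, and lines are group means. All panels span the same height in log2 units but start at different levels, and in each of them both eEF1A arrays lie outside the range of the controls.

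All 7 subunits found only in Pol I had differences below 0, as did 2397 of all 5685 genes. Of the 7, 4 were called lower (57.1%, where 15.7% of all genes were), and none of those 4 is a catalytic subunit. The lower count was 2 without any 1 of the controls, and 0 with the replicate number taken as a block. Rpa49 and Rpa34 form a dimer that resembles TFIIF of the Pol II system. *RPA34* read 12.05 and 11.93 in eEF1A cells, against 12.23, 12.32, 12.28 and 12.28 in control cells, a difference of −0.29 (SE 0.06, limma adjusted p = 0.00415). *RPA49* read 11.23 and 11.10 in eEF1A cells, against 11.37, 11.39, 11.43 and 11.39 in control cells, a difference of −0.23 (SE 0.05, limma adjusted p = 0.0108). Both genes of the dimer thus had eEF1A arrays below all the controls. *RPA12*, whose product is needed for RNA cleavage and termination, averaged 11.06 ± 0.10 (SD, n = 2) in eEF1A cells and 11.25 ± 0.03 (SD, n = 4) in control cells. *RPA14*, one of the stalk subunits, averaged 11.05 ± 0.03 in eEF1A cells and 11.21 ± 0.04 in control cells. These differences of −0.19 and −0.16 had limma adjusted p of 0.0263 and 0.0347, and each passed the threshold with eEF1A replicate 2 left out but not with any of the other 5 arrays left out (0.0540 to 0.115).

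The large catalytic subunits of Pol I had the smallest differences among its own subunits, and neither was called. *RPA190*, which encodes the largest subunit, read 11.84 and 11.77 in eEF1A cells, against 11.87, 11.83, 11.91 and 11.87 in control cells. The groups overlapped, and the difference was −0.06 (95% interval −0.18 to 0.06). This interval overlaps those of *RPA49* (−0.35 to −0.10) and *RPA34* (−0.41 to −0.16), and a difference between these genes was not tested. *RPA135*, for the second largest subunit, read 12.27 and 12.37 in eEF1A cells, against 12.37, 12.38, 12.51 and 12.44 in control cells (difference −0.11, 95% interval −0.24 to 0.03). *RPA43*, for the stalk subunit through which Pol I contacts Rrn3, read 10.93 in eEF1A replicate 2 and 10.61 in replicate 3, against 10.86 to 10.92 in control cells. The first lies just above the highest control and the second well below the lowest, and without replicate 3 the difference of −0.12 turned to 0.03. *RPA43* and *RPA190* are divergent neighbours on chromosome 15, with 804 bases between their reading frames in the October 2003 build. In the centred data *RPA190* (−0.12, adjusted p = 0.0290), *RPA135* (−0.17, adjusted p = 0.0499) and *RPA43* were also called lower.

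Rpc40 and Rpc19 form the assembly platform that Pol I and Pol III have in common. *RPC19* read 11.63 and 11.62 in eEF1A cells, against 11.95, 11.91, 11.87 and 11.97 in control cells. Its eEF1A arrays were nearly equal and below every control, and the difference of −0.30 (SE 0.05, limma adjusted p = 0.00231) kept its call with each array left out in turn. *RPC40* averaged 11.73 ± 0.10 in eEF1A cells and 11.89 ± 0.04 in control cells. That difference, −0.16, just missed the threshold (limma adjusted p = 0.0524) although the arrays did not overlap. Of the 5 subunits present in every nuclear polymerase, 1 was lower (20.0%, close to the 15.7% of all genes). *RPB8* read 12.92 and 12.80 in eEF1A cells, against 13.01, 13.03, 13.02 and 13.05 in control cells (difference −0.17, SE 0.05, limma adjusted p = 0.0310), and missed the threshold without eEF1A replicate 3 (0.127) or any 1 of the controls (0.0524 to 0.0879). The differences were −0.09 for *RPB5*, −0.10 for *RPO26*, −0.13 for *RPC10* and 0.03 for *RPB10*, none of them called. The last became −0.03 after centring and −0.05 without eEF1A replicate 2.

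Of the 10 subunits found only in Pol III, 4 were lower and none was called higher (1, *RPC34*, before adjustment). The pair with the largest differences, Rpc53 and Rpc37, is the Pol III counterpart of Rpa49 and Rpa34 and acts in termination and reinitiation. *RPC37* (YKR025W, chr11:487408-488256) read 9.72 and 9.47 in eEF1A cells, against 10.005, 9.98, 10.13 and 10.04 in control cells. *RPC53* (YDL150W, chr4:183344-184612) read 9.72 and 9.48 in eEF1A cells, against 9.95, 10.06, 10.10 and 9.98 in control cells. For each gene replicate 3 was the lower of the eEF1A arrays, and both stayed below the controls. The differences were −0.45 for *RPC37* (SE 0.08, a fold of 0.734, limma adjusted p = 0.00271) and −0.42 for *RPC53* (SE 0.08, a fold of 0.747, limma adjusted p = 0.00321). As with *RRN3* and *RRN11*, both kept an adjusted p under 0.05 in every fit tried, but neither passed the B-statistic of 1.5. The groupings that follow were not among the classes fixed beforehand, and no difference between them was tested. All 4 genes of the TFIIF-like dimers of Pol I and Pol III were lower, with a median of −0.35, where 15.7% of all genes were lower. Of the 4 largest and second largest subunits, 1 was lower.

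That one was *RPO31*, for the largest subunit of Pol III. It read 10.35 and 10.32 in eEF1A cells, against 10.49, 10.57, 10.67 and 10.58 in control cells, a difference of −0.24 (SE 0.06, limma adjusted p = 0.0115). *RET1*, which encodes the second largest subunit, read 10.46 and 10.47 in eEF1A cells, against 10.41, 10.47, 10.48 and 10.45 in control cells. Its eEF1A arrays fell inside the control range. The 95% interval of the difference, −0.10 to 0.12, does not overlap that of *RPO31*, −0.38 to −0.11, but a difference between these genes was not tested. The sign of the difference of *RET1*, 0.01, turned under centring (−0.05). Among the stalk genes, *RPC25* was lower (9.50 ± 0.15 in eEF1A cells and 9.71 ± 0.04 in control cells, difference −0.22, limma adjusted p = 0.0305) and *RPC17* was not called (−0.14, adjusted p = 0.149). Without eEF1A replicate 3 the difference of *RPC25* was −0.11 (adjusted p = 0.159), and it also missed the threshold without control replicate 1 (0.0618), 2 (0.0724) or 4 (0.0697).

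The initiation subcomplex of Pol III, Rpc82, Rpc34 and Rpc31, had 0 of 3 genes called by limma, and 2 before adjustment in opposite directions. *RPC34*, whose product contacts TFIIIB, had both eEF1A arrays (10.05 and 10.02) above the controls (9.89 to 9.95). Its difference of 0.12 missed the threshold (limma adjusted p = 0.0756) and passed after the further quantile normalisation (0.0497). *RPC82* had both eEF1A arrays below the controls (difference −0.15, adjusted p = 0.0852) and *RPC31* overlapped with them (−0.08, adjusted p = 0.266). *RPC11*, for the subunit that cleaves RNA at the end of a gene, had a difference of 0.03 (95% interval −0.09 to 0.15), which turned to −0.03 after centring.

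The factors that bring Pol III to its genes were not among the lower members. TFIIIC binds the A and B boxes inside tRNA genes and places TFIIIB upstream, where TFIIIB recruits the polymerase. Of the 6 TFIIIC genes, 2 were higher (33.3%, where 27.8% of all genes were). Both come from the part that binds the B box (tau B, made of Tfc3, Tfc6 and Tfc8), a split that was not among the classes fixed beforehand. *TFC8* read 8.07 and 8.13 in eEF1A cells, against 7.84, 7.74, 7.95 and 7.84 in control cells, a difference of 0.26 (SE 0.07, limma adjusted p = 0.0138). *TFC6* averaged 8.19 ± 0.12 in eEF1A cells and 7.99 ± 0.08 in control cells, a difference of 0.20 (limma adjusted p = 0.0452). *TFC3* averaged 8.58 ± 0.21 in eEF1A cells and 8.37 ± 0.03 in control cells and just missed the threshold (0.21, limma adjusted p = 0.0580). All 3 had both eEF1A arrays above every control, as did 35.9% of all genes. The calls were not firm: both were lost after the further quantile normalisation (0.15, adjusted p = 0.102, for *TFC8* and 0.10, adjusted p = 0.0966, for *TFC6*). That of *TFC8* was also lost without eEF1A replicate 3 (adjusted p = 0.0562), and that of *TFC6* without eEF1A replicate 2 (0.229) or control replicate 1 (0.109), 2 (0.0960) or 4 (0.0899).

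The tau A part of TFIIIC, which binds the A box, had 0 of 3 genes called by limma, and 1, *TFC1*, before adjustment. The differences were −0.14 for *TFC1* (limma adjusted p = 0.0926), −0.04 for *TFC4* and 0.08 for *TFC7*, the last of which became −0.02 after the further quantile normalisation. *TFC1* was below every control array in eEF1A cells and was called lower after centring (adjusted p = 0.0118) and after quantile normalisation (0.0111). The TFIIIB genes overlapped between the groups, and neither had an unadjusted p under 0.05. *BDP1* read 8.38 in eEF1A replicate 2, above every control, and 8.18 in replicate 3, level with the lowest, against 8.18, 8.20, 8.21 and 8.23 in control cells (difference 0.07, 95% interval −0.07 to 0.22). *BRF1* had a difference of −0.04 (95% interval −0.18 to 0.10). It read 9.27 and 9.10 in eEF1A cells, on either side of the control range of 9.20 to 9.25.

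*MAF1* encodes the repressor that binds Pol III and keeps it from TFIIIB when cells are starved or stressed. It is switched mainly by phosphorylation of the protein, which an array does not show. *MAF1* (YDR005C, chr4:456832-458099) read 8.86 and 8.70 in eEF1A cells, against 8.55, 8.45, 8.57 and 8.48 in control cells. Both eEF1A arrays were above every control, with a difference of 0.26 (SE 0.06, a fold of 1.20, limma adjusted p = 0.0108). It was called higher after centring (adjusted p = 0.00788) and after the further quantile normalisation (0.00742), and missed the threshold without eEF1A replicate 2 (0.18, adjusted p = 0.0525).

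**Figure D3:**
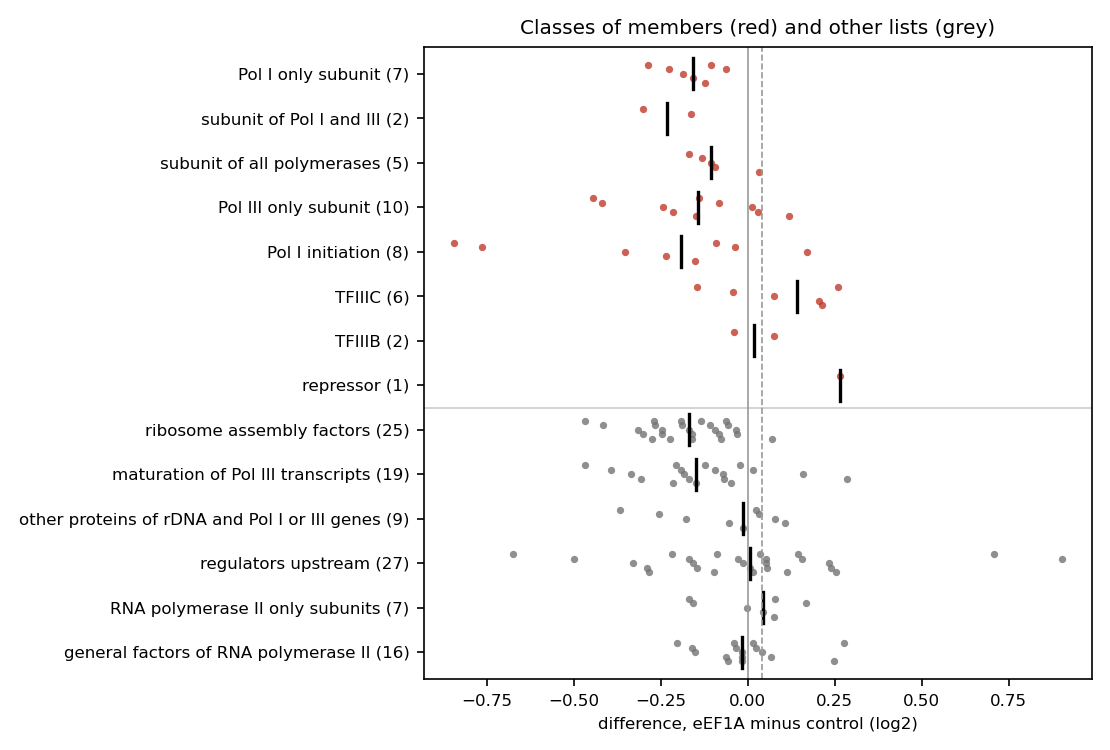
Difference between eEF1A (n = 2) and control (n = 4) arrays on the log2 scale for the members by class (red, above) and for genes of connected processes (grey, below), 1 point per gene, with the number of genes in parentheses; black bars are medians and the dashed line is the median of all genes. Medians of the polymerase subunit classes lie between −0.23 and −0.10, that of TFIIIC is 0.14, and those of both RNA polymerase II lists lie within 0.05 of 0.

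Genes that do the same work for RNA polymerase II were counted in the same way, beside the 15.7% of all genes that were lower and the 27.8% that were higher. Of the 7 subunits found only in that enzyme, 1 was higher (*RPB11*, 0.17) and 1 lower (*RPB3*, −0.17), with a median of 0.04, and *RPB2*, for its second largest subunit, was not called (0.04). The call of *RPB11* was lost without any 1 of the controls, without eEF1A replicate 2 and after centring. That of *RPB3* was lost without control replicate 1, 2 or 4 or eEF1A replicate 3. Of 16 genes of its general factors, 2 were higher (*TFB5*, 0.28, and *TFB1*, 0.25) and 1 was lower (*TFB4*, −0.16), all of them from the repair and initiation factor TFIIH, with a median of −0.02. *SUA7*, the gene of TFIIB, was not called (0.07). The call of *TFB5* was lost without control replicate 1, 3 or 4 or eEF1A replicate 2, and that of *TFB4* without control replicate 1, 2 or 3 or eEF1A replicate 3. After centring, the general factors had 1 higher and 3 lower, as they had without eEF1A replicate 2. Set beside these, 10 of the 24 genes of subunits of Pol I and Pol III were lower (41.7%) and none was called higher. Before adjustment 12 were lower and 1 higher, and the median was −0.14. The 24 include the 5 subunits that RNA polymerase II also has, of which 1, *RPB8*, was lower, so the sets are not defined alike. The share lower among the subunits found only in RNA polymerase II, 14.3%, was close to that of all genes. Of 9 other genes of proteins at the rDNA or at Pol III genes, 3 were lower. They were *TOP1*, for DNA topoisomerase I (−0.37), *PZF1*, for TFIIIA, which directs Pol III to the 5S rRNA genes (−0.26), and *HMO1*, for an rDNA-binding HMG protein (−0.18). *SPT15*, for the TATA-binding protein that all nuclear polymerases use, was not called (−0.05, limma adjusted p = 0.425).

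Genes that handle the products of both enzymes were also counted, again beside 15.7% lower and 27.8% higher among all genes. Of 25 ribosome assembly factors, 13 were lower and none higher (14 and 0 before adjustment, by limma), with a median of −0.17. *DBP2* (−0.47) encodes an RNA helicase, *NOG2* (−0.42) a GTPase of large subunit assembly, *RRS1* (−0.32) acts in 5S particle assembly, and *NOP58*, for a box C/D snoRNP protein, was not called (−0.03). The lower count was 8 without eEF1A replicate 3, and 21 after centring and after quantile normalisation. Of 19 genes that process Pol III transcripts, 6 were lower and 1 was higher, with a median of −0.15. *SEN34* (−0.47) encodes a subunit of the tRNA splicing endonuclease, *CCA1* (−0.34) the enzyme that adds CCA to tRNA ends and *POP6* (−0.39) a subunit of RNase P and RNase MRP, while *POP5* (0.29), for another subunit of both, was the higher one. *LOS1*, for a tRNA exporter, was not called (−0.15). The lower count was 12 after centring and 10 after quantile normalisation, and 2 were higher without eEF1A replicate 3. Of 143 probe sets of cytosolic ribosomal proteins, 119 had differences below 0, as did 2397 of all 5685 genes, and the median was −0.03. By limma, 5 were called lower (3.5%, where 15.7% of all genes were) and 1 was called higher. This lower count was 14 without eEF1A replicate 2, 2 without eEF1A replicate 3 or control replicate 1, 2 or 4, 25 after centring and 10 after quantile normalisation. The largest were *RPL41A/RPL41B* (−0.60), *RPS19A* (−0.26) and *RPS9A* (−0.26), and the higher one was *RPS28B* (0.16). The call of *RPS28B* was lost without either of the eEF1A arrays, without control replicate 1 or 4, and after centring. The transcripts that Pol III makes were not analysed here.

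Of 27 genes of pathways that act on Pol I or Pol III, 5 were higher (18.5%, where 27.8% of all genes were) and 7 lower (25.9%, where 15.7% of all genes were). Their median was 0.01. *TPK2* (0.71), for a catalytic subunit of protein kinase A, a kinase that phosphorylates Maf1, was higher, while *TPK3* (−0.33), for another catalytic subunit, was lower. *PPH3* (−0.68), for a catalytic subunit of protein phosphatase 4, which dephosphorylates Maf1, was lower, and so was its partner gene *PSY2* (−0.29). *DOT6* (0.24) and *TOD6* (−0.50), paralogues whose products repress ribosome biogenesis genes, moved in opposite directions. *CKA2*, for a catalytic subunit of casein kinase 2, was not called (−0.02). *TPK3*, *PSY2*, *DOT6* and *TOD6* were chosen after their values were seen. Without eEF1A replicate 3, 8 genes of this list were higher.

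The chip also carries 17 control probe sets for the rRNAs that Pol I transcribes, looked at after the other values. Over them 10 differences were below 0 and 7 above, with a median of −0.07. The differences ranged from −0.74 to 0.22. Only 2 of the 8 probe sets for 25S rRNA, and none of the 8 for 18S rRNA or the 1 for 5.8S rRNA, had groups that did not overlap. Both of these were lower in eEF1A cells (−0.26 and −0.30). The mean of the 17 probe sets per array was 12.71 and 13.31 in eEF1A cells, against 12.93, 13.27, 13.31 and 12.97 in control cells. The arrays thus fell into 3 with less rRNA signal (eEF1A replicate 2, control replicates 1 and 4) and 3 with more (eEF1A replicate 3, control replicates 2 and 3), across the groups. Set against the controls of the same kind, eEF1A replicate 2 had 26 of 41 members below 0 with a median of −0.05, and eEF1A replicate 3 had 33 below 0 with a median of −0.20. The median of all genes was 0.10 for replicate 2 and −0.01 for replicate 3. Each split holds only its own eEF1A replicate, so rRNA signal and replicate cannot be told apart in it. Within these splits the differences were −0.71 and −0.82 for *RRN3*, −0.69 and −0.99 for *RRN11*, −0.30 and −0.59 for *RPC37*, −0.24 and −0.60 for *RPC53* and 0.34 and 0.19 for *MAF1*. With the rRNA mean as a covariate, 13 members were lower and 2 higher.

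**Figure D4:**
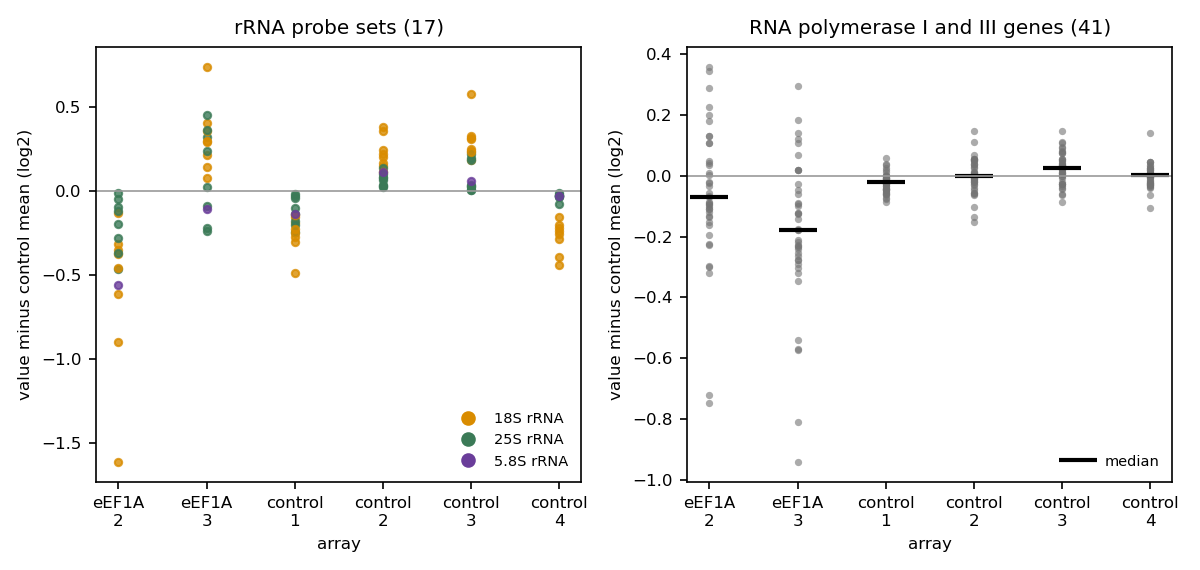
Value on each array minus the mean of the 4 controls (log2) for 17 rRNA probe sets (left, coloured by rRNA) and for the 41 members (right, 1 point per gene, with the median as a bar). The rRNA signal divides the arrays across the groups, while the medians of the members are −0.07 and −0.18 on eEF1A replicates 2 and 3 and between −0.02 and 0.03 on the control arrays.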

How the data were processed

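Total RNA from log phase cultures was hybridised to Affymetrix Yeast 2.0 arrays. The deposited log2 expression values were made by the authors with RMA, named without a version, in affylmGUI. RMA subtracts background, forces 1 common distribution of values onto the arrays and combines each gene's probes. A shift shared by most genes can thus be hidden, at least in part. The values cover 10928 probe sets, 5028 of them for *S. pombe*. Medians over the named *S. cerevisiae* probe sets still differed, at 9.13 and 9.04 on eEF1A replicates 2 and 3, against 9.01 to 9.06 on control arrays. The authors also deposited sheets of their own comparison (log2 fold changes, B-statistics and p-values), which were not used. The number of arrays, 2 and 4, limits the precision.

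From the log2 values of 5810 *S. cerevisiae* probe sets, 73 control probe sets without a gene name were set aside (rRNAs, other controls and reporter constructs). The probe set with the highest mean stood for each gene, leaving 5685. Locus tags of 5713 probe sets matched a RefSeq table of the R64 assembly, and no member's symbol differed. Coordinates are those of the chip annotation. A model with a term for group alone was fitted in limma 3.58.1 (R 4.3.3) and moderated by empirical Bayes (proportion 0.01, 4.20 prior and 4 residual degrees of freedom). P-values were adjusted over all genes by Benjamini-Hochberg. The fit was also run on simulated data with independent noise. Such data lack the shifts that many genes share on these arrays, so the run cannot measure how reliable the calls here are. Intervals use 8.20 degrees of freedom.

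The members and lists were chosen with earlier results of these data known. All members are named. Values on every array are given for the 12 called members with the largest differences, the 2 largest subunits of each polymerase, *RRN3*, *MAF1* and the leading member of each class. In the other lists the rule was up to 3 called genes and 1 uncalled. 1 gene that it would name is not reported here, and *TPK3*, *PSY2*, *DOT6*, *TOD6*, *POP5* and *RPS28B* were named beyond it after their values were seen. Alternatives changed the scaling (another quantile normalisation, centring on the median), the moderation (over every probe set of the chip, with a trend, robust), the weights given to arrays, and the probe sets (dim genes dropped, a gene's probe sets averaged, those matching several genes dropped). Further fits took the replicate number as a block, kept only arrays numbered 2 and 3, or left out 1 array, and the B-statistic replaced the adjusted p. The rRNA mean as a covariate was added after seeing the data. Promoter motifs were not analysed here.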

Additional observations from a re-analysis of the deposited data

Results flagged for a closer look

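Over the 41 members and the rRNA mean, 3 of 42 sets of control arrays held an array that stood apart from the other controls by Dixon's test at the 95% level, and chance alone marks about 1 set in 20. *RPA14* read 11.26 on control replicate 3, where the other controls all lay at 11.19. Leaving that array out gave a difference between eEF1A and control cells of −0.14 (limma adjusted p = 0.0642). *RPB10* read 11.84 and 11.68 in eEF1A cells, against 11.84 on control replicate 2 and 11.69 to 11.70 on the other controls. *RRN9* read 9.12 and 9.004 in eEF1A cells, against 9.16 on control replicate 1 and 9.23 to 9.24 on the other controls.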

How the results depend on the processing

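Against 14 members lower, 3 higher and a median difference of −0.12, quantile normalisation gave 22 lower, centring 26 lower and a median of −0.18, array weights 9 lower, only arrays numbered 2 and 3 gave 5 lower and 0 higher, and a B-statistic above 1.5 gave 2 lower and 0 higher. With each array left out in turn, from 9 to 20 members were lower, from 1 to 4 higher, and the median lay between −0.1785 and −0.0708. The replicate block left 4 lower (*RRN3*, *RRN11*, *RPC37*, *RPC53*) and 0 higher, and over all genes 793 higher and 440 lower. Deviations of same-numbered arrays correlated at −0.0122 and −0.0420. With 2 eEF1A arrays their deviations mirror each other, so these correlations cannot decide whether the numbers pair the arrays. The settings that kept every array and are not named above gave 12 to 15 lower and 2 to 4 higher. For the other lists the replicate block left 3 ribosome assembly factors, 2 genes of Pol III transcript maturation, 2 regulators and 1 ribosomal protein lower. The cause of these changes was not tested, beyond fewer arrays in the fits that leave some out.

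Signs turned for 9 members, none of them called in the fit where its sign turned. With each array left out in turn, differences ranged between −0.278 and 0.0342 for *RPA43*, −0.0473 and 0.109 for *RPB10*, −0.0028 and 0.0213 for *RET1*, −0.179 and 0.107 for *RRN10*, −0.0938 and 0.0074 for *TFC4*, −0.127 and 0.0470 for *BRF1*, and −0.0289 and 0.178 for *BDP1*. *RRN10* also turned without control replicate 3 (0.0124). Centring gave −0.0297 for *RPB10*, −0.0491 for *RET1* and −0.0300 for *RPC11*, and quantile normalisation −0.0242 for *TFC7* and −0.0240 for *BDP1*. With the replicate block and with arrays 2 and 3 alone, *RPB10* stood at −0.0099 and *RET1* at −0.0101. *RRN3*, *RRN11*, *RPC37* and *RPC53* had an adjusted p under 0.05 in every fit, and 9 members with each array left out in turn.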
